A study of Mus musculus with 8 samples.

Results

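A set of 10 genes of extracellular matrix breakdown and its control was read out in macrophages of the mouse heart. They were Mmp13, Mmp14, Mmp9 and Mmp2, which encode matrix metalloproteinases, Timp2 and Timp3, which encode their tissue inhibitors, Adam9 and Adam17, which encode membrane proteases that shed cell-surface proteins, Plaur, which encodes the urokinase receptor, and Ctsk, which encodes the collagen-cleaving protease cathepsin K. They were taken by gene symbol, were chosen with earlier results of these data known, and make up 10 of the 24516 genes in the deposited count table. The RNA came from endocardially derived cardiac tissue macrophages (EcTM, 4 libraries) and from cardiac tissue macrophages without that origin (non-EcTM, 4 libraries), sorted by flow cytometry. The mice of both groups were C57BL/6, aged 28 postnatal days, with the genotype Nfatc1Cre/+; Rosa26Tomato reporter/+. Nfatc1 is active in the endocardium, the inner lining of the heart, so that Cre made there switches on the Tomato colour in those cells and in their descendants, and the origin of EcTM is inferred from that Cre line. Each EcTM library (E591, E592, E604, E606) was compared with the non-EcTM library of the same number (N591, N592, N604, N606). What shares a number is not given by the labels (an animal, a litter or a pool), so p-values measure the spread between these libraries.

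Metalloproteinases are made as inactive proenzymes and cut collagens, gelatin and other matrix proteins once their propeptide has been removed. Mmp14 sits in the cell membrane and activates pro-Mmp2 there with the help of Timp2, while Timp3 binds to the matrix and also inhibits Adam17. The urokinase receptor holds the plasminogen activator urokinase at the cell surface, where plasmin is then formed, and plasmin in turn can activate several metalloproteinases. Tissue macrophages are a known source of several of these enzymes.

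Stretches of 250 bases before the start site show the sequence context of the genes on which the results below turn most. RefSeq's promoter table for GRCm38.p6 held 7 of the 10 genes, namely Mmp13, Mmp14, Timp2, Timp3, Adam17, Plaur and Ctsk. Capitals mark matches to 4 motifs searched on both strands, the AP-1 motif TGANTCA, the TATA box TATAAA, the Runx motif AACCACA and the GC box GGGCGG. Mmp13 and Plaur are shown as the members with an AP-1 match, and Timp3 as the inhibitor gene with the widest spread between libraries. They lie at chr9:7272264-7272513 (plus strand), chr7:24462233-24462482 (plus strand) and chr10:86300162-86300411 (plus strand), and for Plaur the table takes a start inside the annotated gene.
Mmp13: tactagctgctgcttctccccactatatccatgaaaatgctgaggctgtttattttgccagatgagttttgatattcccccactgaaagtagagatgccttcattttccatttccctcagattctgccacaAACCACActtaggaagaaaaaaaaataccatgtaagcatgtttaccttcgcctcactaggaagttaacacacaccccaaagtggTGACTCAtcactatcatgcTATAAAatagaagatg
Plaur: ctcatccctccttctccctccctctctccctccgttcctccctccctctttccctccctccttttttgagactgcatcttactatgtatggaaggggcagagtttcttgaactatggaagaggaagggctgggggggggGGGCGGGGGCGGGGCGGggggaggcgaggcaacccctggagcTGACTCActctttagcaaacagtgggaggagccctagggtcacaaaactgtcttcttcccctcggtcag
Timp3: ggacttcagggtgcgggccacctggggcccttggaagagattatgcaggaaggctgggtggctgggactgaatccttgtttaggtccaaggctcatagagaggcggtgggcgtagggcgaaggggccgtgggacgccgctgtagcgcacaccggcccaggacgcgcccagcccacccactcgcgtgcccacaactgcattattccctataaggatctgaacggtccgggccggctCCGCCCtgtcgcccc
The AP-1 match TGACTCA begins 35 bases before the start in Mmp13 and 69 bases before it in Plaur, and 6.87% of 27025 promoters of the same length hold this motif. Mmp13 also has a TATA box 16 bases before the start and a Runx match 119 bases before it, which 13.0% and 4.46% of the promoters hold. Plaur has 3 GC boxes that adjoin or overlap each other by 1 base, Mmp14 has 2, and Timp2, Timp3 and Adam17 have 1 each, against 32.9% of promoters with at least 1. Ctsk has no match to the 4 motifs in this stretch. A match describes letters in a window and is not evidence of a bound site.

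Counts in genes summed to between 2152425 and 2576407 per library in EcTM and between 2281657 and 2937464 in non-EcTM. A floor of 3 counts in a library corresponds to 1.02 to 1.39 CPM (counts scaled to a common library size). A gene described as at 0 had no count in any of the 8 libraries. Of the 24516 genes, 10197 were at 0 in all 8 libraries. Counts differed with the number of curated RefSeq transcripts of a gene. In families of housekeeping genes the median total over 8 libraries was 590 counts for 173 genes with 1 curated transcript and 38 counts for 72 genes with 2 or more. Over all protein-coding genes the medians were 18 counts for 12457 genes with 1 and 7 counts for 8152 genes with 2 or more, with 36.6% and 38.7% at 0, and single genes with several transcripts had high counts, such as Lgmn with 2 transcripts and 38011 counts. Mmp13, Mmp14, Mmp9, Mmp2, Timp2, Timp3, Plaur and Ctsk have 1 curated transcript each, whereas Adam9 has 2 and Adam17 has 5. All 11 genes of a macrophage marker list were measured well enough to test, and their summed level was 25192 to 25992 CPM in EcTM, against 23386 to 25254 in non-EcTM. Marker lists of mesothelial, T and NK, B and mast cells each summed to at most 6.71 CPM in EcTM libraries, against at most 3.49 in non-EcTM libraries. A dendritic cell list of 7 markers summed to 9.87 to 24.1 CPM in EcTM, against 11.9 to 24.0 in non-EcTM. The 12 cardiomyocyte markers summed to 78.9 to 149 CPM in EcTM, against 96.3 to 179 in non-EcTM. A filter on low counts left 7667 genes, which hold 99.3% of all counts, and 7 of the 10 genes were among them. Adam9, Adam17 and Ctsk were not.

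Levels of the 8 genes with 1 curated transcript can be set side by side per transcript length. Timp2 was the most abundant, with 293 CPM per kilobase over 8 libraries, followed by Mmp13 with 117, Plaur with 90.7 and Mmp14 with 22.6. Timp3 with 7.85, Mmp9 with 7.39, Mmp2 with 4.26 and Ctsk with 1.04 CPM per kilobase lay far below them. Mmp13 and Plaur stood apart in EcTM, at 132 ± 14.5 and 88.9 ± 16.9 CPM per kilobase (SD, n = 4), but not beyond their spread in non-EcTM, at 103 ± 6.09 and 92.5 ± 24.8. Timp3 and Mmp9 were within 1 SD of each other in both groups, at 4.50 ± 4.32 and 5.46 ± 2.08 CPM per kilobase in EcTM and at 11.2 ± 11.8 and 9.31 ± 3.32 in non-EcTM.

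Between EcTM and non-EcTM none of the 7 tested genes passed the test. In the quasi-likelihood test of edgeR with libraries paired by number, the smallest adjusted p among them was 0.497, for Timp3, and 1 of all 7667 genes passed (0.013%). At an unadjusted p under 0.05 there were 3 of the 7, Mmp13 and Mmp2 with higher levels in EcTM and Timp3 with a lower level, against 414 of 7667 genes (5.4%). The same test without pairing called 0 genes (0%), with 257 at an unadjusted p under 0.05 (3.35%), and of the 7 genes only Mmp13 was among those. Paired DESeq2 called 26 of 2660 genes (0.977%), with Mmp13 among them, and paired limma-voom called 19 of 7667 (0.248%), with none of the 7. With DESeq2's own filter set for a threshold of 0.05 Mmp9, Mmp2 and Timp3 had no adjusted p in DESeq2, and at the filter's default setting Timp3 had 0.469. Groups did not overlap for 1 of the 7 genes, Mmp13, and for 207 of all tested genes (2.7%), of which 99 (1.29%) had every EcTM library above and 108 (1.41%) every EcTM library below. In bulk RNA, fewer cells of a type and less RNA per cell cannot be told apart.

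**Figure D1:**
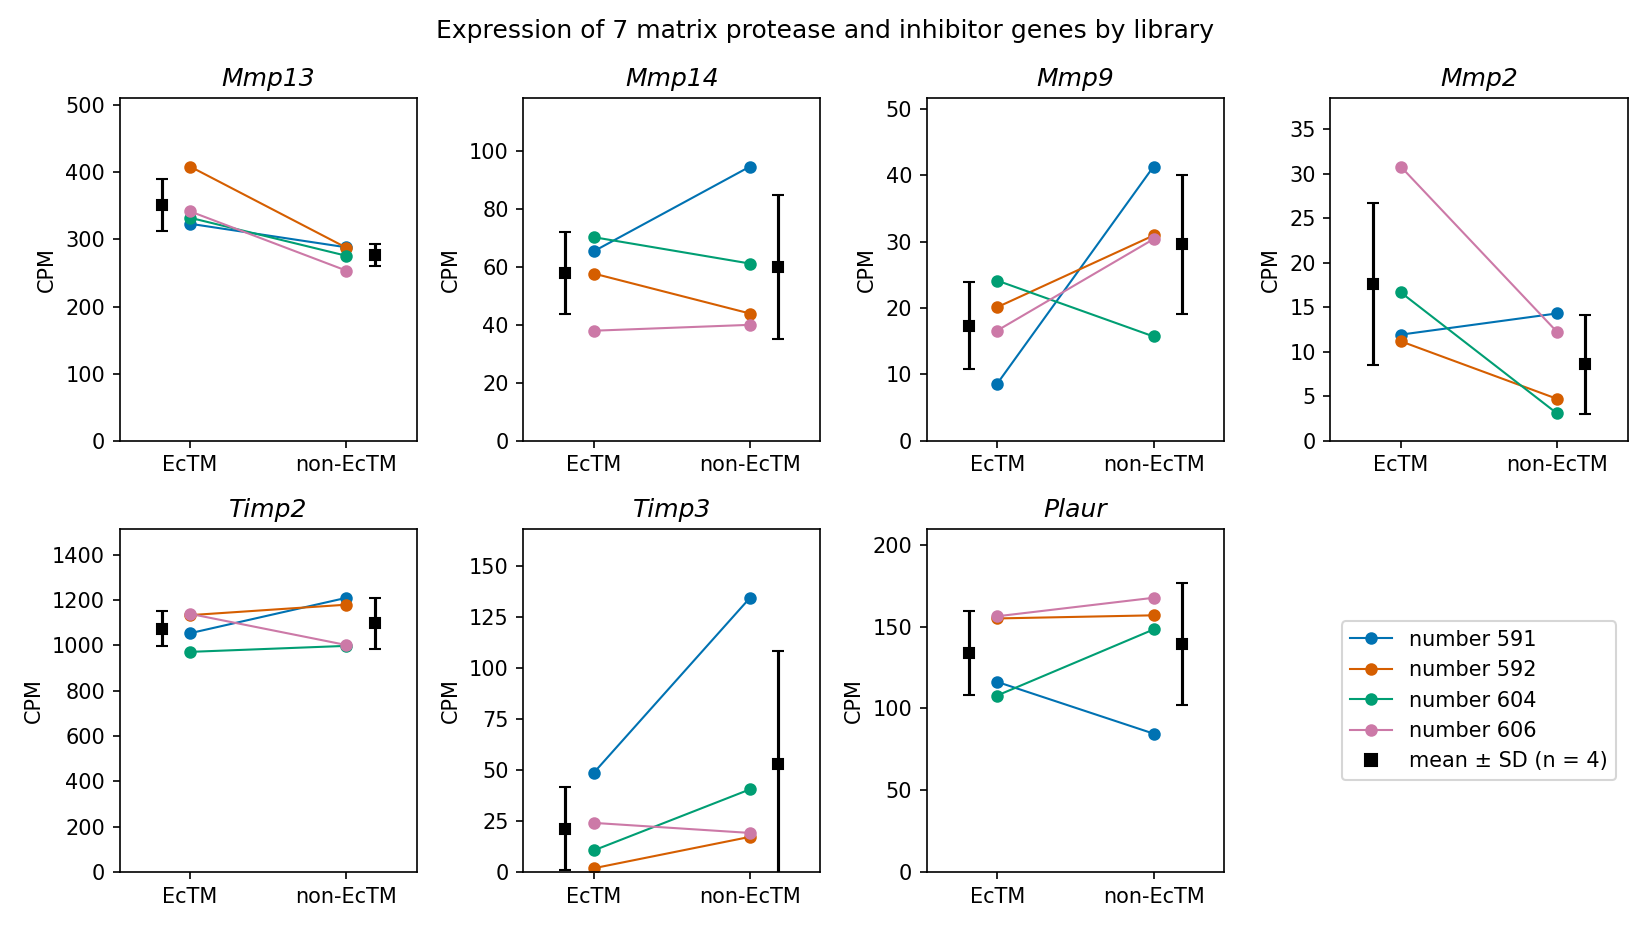
Level of the 7 tested genes in each library, in CPM on a linear axis from 0, with EcTM on the left of each panel, non-EcTM on the right and a line joining libraries of the same number. Black squares and bars give the mean and SD of 4 libraries, and the bar of Timp3 in non-EcTM, 52.9 ± 55.5 CPM, is cut at 0. All 4 lines of Mmp13 run downward to non-EcTM, while Timp3 is highest in N591 and lowest in E592.

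Mmp13, on chromosome 9 (GRCm38.p6, 7272514 to 7283333, Entrez gene 17386), encodes collagenase 3, which cuts fibrillar collagens and is the main interstitial collagenase of mice. Mmp13 had 323, 409, 332 and 342 CPM in E591, E592, E604 and E606, against 288, 288, 276 and 253 CPM in N591, N592, N604 and N606. Every EcTM library was above every non-EcTM library, and E592 was the highest of all. Means were 352 ± 38.8 CPM in EcTM, against 276 ± 16.3 in non-EcTM (SD, n = 4). The paired log2 fold change was 0.34 ± 0.10 (SE, 95% interval 0.14 to 0.55), a fold of 1.27, with an adjusted p of 0.578 in edgeR and an unadjusted p of 0.00226, which ranked it 30th of the 7667 genes. In 4 of 4 pairs the EcTM library was the higher one, as for 555 tested genes (7.24%), while 528 were lower in 4 of 4 (6.89%). The pair differences were 0.17, 0.51, 0.27 and 0.43 on the log2 scale in the pairs of E591, E592, E604 and E606. Paired DESeq2 gave 0.35 with an adjusted p of 0.0428, and this call was lost at DESeq2's default setting of its own filter on low counts, with an adjusted p of 0.0641, where 17 of 4325 genes passed (0.393%). In limma-voom the adjusted p was 0.142. Among the 490 tested genes within 0.5 of the mean log2 CPM of Mmp13, the SE of a log2 fold change had a median of 0.11, against 0.30 over all tested genes.

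Mmp14, on chromosome 14 (54431598 to 54442456, Entrez gene 17387), encodes the membrane-type metalloproteinase that activates pro-Mmp2. Its levels were 65.3, 57.6, 70.2 and 37.9 CPM in E591, E592, E604 and E606, against 94.5, 43.8, 61.1 and 39.9 CPM in N591, N592, N604 and N606. The groups overlapped throughout, and E606 and N606 were the lowest of their groups. EcTM averaged 57.7 ± 14.2 CPM and non-EcTM 59.8 ± 24.9 CPM (SD, n = 4). The paired log2 fold change was -0.01 ± 0.22 (95% interval -0.47 to 0.46), with an adjusted p of 0.998 in edgeR, and the interval holds differences of either sign.

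The 2 gelatinases, which cut denatured collagen and basement membrane collagen, had log2 fold changes of opposite sign, and neither passed the test. Mmp9, on chromosome 2 (164940326 to 164955850, Entrez gene 17395) and known as the gelatinase of neutrophils and macrophages, had 8.58, 20.1, 24.1 and 16.6 CPM in E591, E592, E604 and E606, against 41.3, 30.9, 15.7 and 30.4 CPM in N591, N592, N604 and N606. The lowest library was E591 and the highest was its partner N591, while the order was turned round in E604, which was above N604. Group means were 17.3 ± 6.61 CPM in EcTM, against 29.6 ± 10.5 in non-EcTM (SD, n = 4). Its paired log2 fold change was -0.76 ± 0.40 (95% interval -1.59 to 0.07), with an adjusted p of 0.930 in edgeR and a lower level in EcTM in 3 of 4 pairs, and it was -0.31 without E591 and N591. Neutrophil markers were at or near 0, with a summed level over 10 genes of 0 to 3.51 CPM in EcTM, against 3.18 to 8.58 in non-EcTM. No neutrophil marker passed the filter on low counts. Of the 4 that were at 0 in all libraries, 2, S100a9 and Ly6g, have 2 curated transcripts each. The part of neutrophil RNA in the Mmp9 values was not tested.

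Mmp2, on chromosome 8 (92827290 to 92853421, Entrez gene 17390), encodes gelatinase A, in many tissues a product of fibroblasts and other stromal cells. It had 11.9, 11.2, 16.7 and 30.8 CPM in E591, E592, E604 and E606, against 14.3, 4.70, 3.05 and 12.2 CPM in N591, N592, N604 and N606. E606 was the highest library, and E592, E604 and E606 were above their partners while E591 was not. The means were 17.6 ± 9.11 CPM in EcTM, against 8.56 ± 5.52 in non-EcTM (SD, n = 4). In the paired test the log2 fold change was 1.15 ± 0.54 (95% interval 0.04 to 2.25), with an adjusted p of 0.907 in edgeR and an unadjusted p of 0.0430. A fibroblast marker list of 10 genes, whose defining member Pdgfra was at 0 and has 5 curated transcripts, summed to 137, 32.6, 44.3 and 25.3 CPM in E591, E592, E604 and E606, against 217, 30.5, 32.7 and 40.3 CPM in N591, N592, N604 and N606. These sums were highest in E591 and N591. Mmp2 had 11.9 CPM in E591, below E604 and E606, and 14.3 CPM in N591, the highest of non-EcTM. The part of fibroblast RNA in the Mmp2 values was not tested.

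Timp2, on chromosome 11 (118301061 to 118355411, minus strand, Entrez gene 21858), encodes the inhibitor that also serves Mmp14 in the activation of Mmp2. Its levels were 1053, 1133, 971 and 1139 CPM in E591, E592, E604 and E606, against 1210, 1179, 998 and 1001 CPM in N591, N592, N604 and N606. The groups overlapped and no library stood apart. EcTM averaged 1074 ± 79.0 CPM and non-EcTM 1097 ± 113 CPM (SD, n = 4), a paired log2 fold change of -0.03 ± 0.07 (95% interval -0.18 to 0.12), the narrowest interval of the 7 genes, with an adjusted p of 0.994 in edgeR. The gene overlaps Cep295nl on the same strand, which had 506 counts over all libraries beside 21224 for Timp2.

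Timp3, on chromosome 10 (86300412 to 86349505, Entrez gene 21859), encodes the matrix-bound inhibitor, which in vessels is made by endothelial and mural cells. It had 48.6, 1.79, 10.5 and 24.1 CPM in E591, E592, E604 and E606, against 135, 17.2, 40.6 and 19.1 CPM in N591, N592, N604 and N606. E592 was the lowest library and N591 by far the highest, and E591, E592 and E604 were below their partners while E606 was above N606. The value in E592 rests on 4 counts, near the floor of 3. The means were 21.2 ± 20.4 CPM in EcTM, against 52.9 ± 55.5 in non-EcTM (SD, n = 4), with pair differences of -1.45, -2.79, -1.87 and 0.32 on the log2 scale. Its paired log2 fold change was -1.37 ± 0.38 (95% interval -2.15 to -0.59), with an adjusted p of 0.497 in edgeR and an unadjusted p of 0.00136, the 21st smallest. With no filter on low counts the adjusted p was 0.0354. Without pairing the value was -1.32 ± 0.70, and it was -0.27 when N591 was left out of that fit. The paired value was -1.98 without E606 and N606. Syn3 overlaps Timp3 on the other strand and had 27 counts over all libraries beside 725 for Timp3.

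Plaur, on chromosome 7 (24460937 to 24475970, Entrez gene 18793), gave 116, 155, 108 and 156 CPM in E591, E592, E604 and E606, against 84.6, 157, 148 and 168 CPM in N591, N592, N604 and N606. N591 was the lowest library, and E591 and E604 lay below the other 3 non-EcTM libraries, so that the groups overlapped through N591, E592 and E606. EcTM averaged 134 ± 25.4 CPM and non-EcTM 139 ± 37.4 CPM (SD, n = 4). The paired log2 fold change was -0.03 ± 0.15 (95% interval -0.35 to 0.28), with an adjusted p of 0.997 in edgeR.

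The remaining proteases were too low to test. Ctsk, on chromosome 3 (95499210 to 95509387, Entrez gene 13038), is known best from bone-resorbing osteoclasts and had 0, 0, 1 and 17 counts in E591, E592, E604 and E606, against 7, 3, 1 and 3 counts in N591, N592, N604 and N606. Of its 18 counts in EcTM, 17 came from E606, and the 14 counts in non-EcTM were spread over all 4 libraries. Adam17, on chromosome 12 (21323509 to 21373632, minus strand, Entrez gene 11491), encodes the enzyme that releases tumour necrosis factor from the cell membrane. It had 2, 6, 0 and 0 counts in E591, E592, E604 and E606, against 0, 3, 4 and 0 counts in N591, N592, N604 and N606. These were 8 counts in EcTM and 7 in non-EcTM. Adam17 has 5 curated transcripts, whose part in its low counts was not tested, and Iah1, with 277 counts, overlaps it on the other strand. Adam9, on chromosome 8 (24949611 to 25017040, minus strand, Entrez gene 11502), a related sheddase, had 0 counts in EcTM and 1 count, in N606, in non-EcTM. At these counts no difference was detectable for Adam9 or Adam17.

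**Figure D2:**
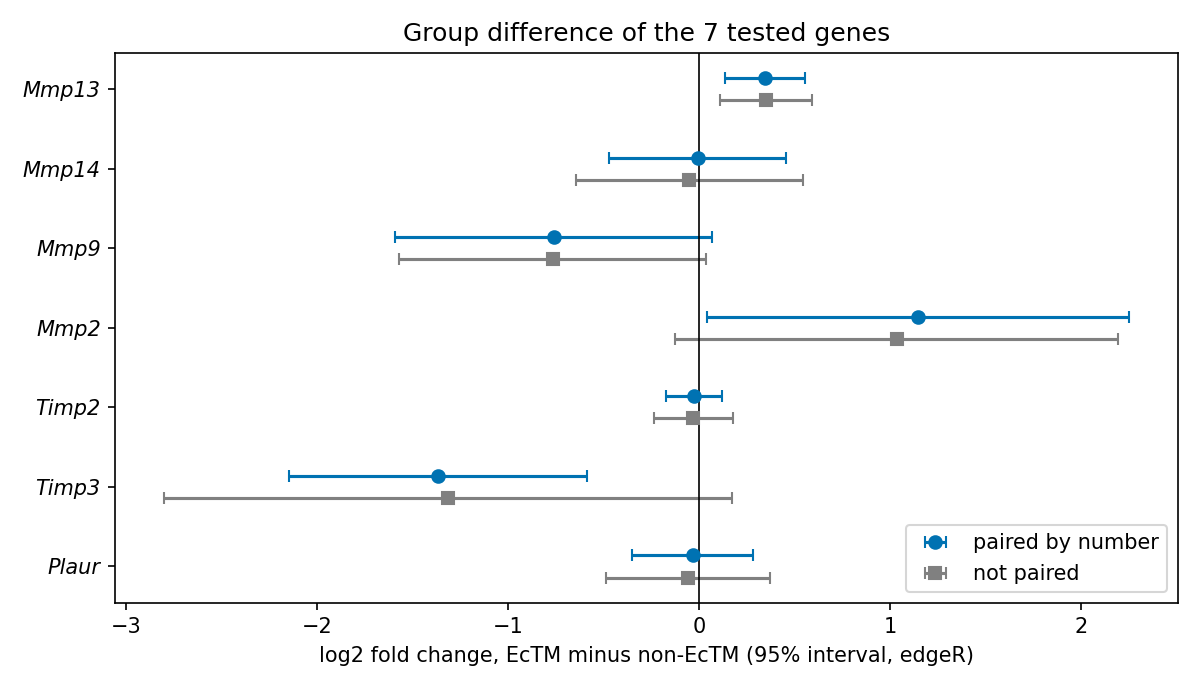
Log2 fold change of EcTM over non-EcTM for the 7 tested genes with its 95% interval in edgeR, paired by number (blue circles) and not paired (grey squares). The paired intervals of Mmp13, Mmp2 and Timp3 do not include 0, and pairing narrows the interval most for Timp3.

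With a library or number left out, Mmp13 had 0.27 to 0.40 on the log2 scale. Its direction could not turn there, since its groups did not overlap. Mmp9 ranged over -1.22 to -0.31, Mmp2 over 0.62 to 1.63 and Timp3 over -2.101 to -0.27. Mmp14, Timp2 and Plaur crossed 0.

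**Figure D3:**
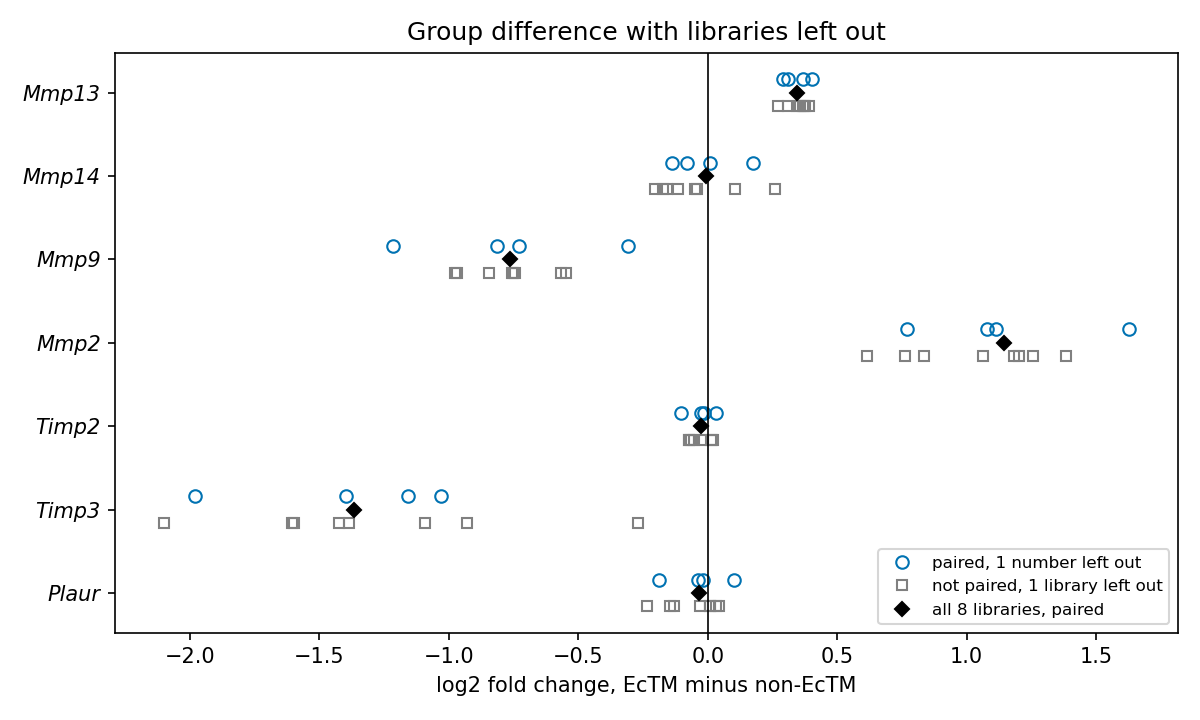
Log2 fold change of EcTM over non-EcTM in edgeR with all 8 libraries paired (black diamonds), with 1 number left out of the paired fit (blue circles) and with 1 library left out of the fit without pairing (grey squares). Points of Mmp13, Mmp2, Mmp9 and Timp3 stay on 1 side of 0, and the grey square of Timp3 nearest to 0, at -0.27, lacks N591.

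Timp3 differed between the numbers, over both groups at once, and the other 6 tested genes did not pass that test. The EcTM and the non-EcTM library of a number served as its replicates, and the labels do not say what they share. The same edgeR fit was used to test the 3 differences between numbers, and 233 of 7667 genes passed (3.04%), with 862 at an unadjusted p under 0.05 (11.2%). Timp3 passed with an adjusted p of 0.000779 and a fitted log2 range of 3.39 between numbers, against a median of 0.65 over all tested genes. It averaged 91.6 CPM in the pair of E591 and N591, 9.50 in that of E592 and N592, 25.5 in that of E604 and N604 and 21.6 in that of E606 and N606, so that the first pair was 9.64-fold above the second. Of the 233 genes that passed, 88 had their highest mean in E591 and N591, which is 1.15% of all tested genes. Without E591 and N591 the range of Timp3 was 1.71 and the adjusted p 0.438 in edgeR, and without E592 and N592 they were 1.90 and 0.0189.

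Plaur and Mmp14 had an unadjusted p under 0.05 between numbers but did not pass. Plaur averaged 162 CPM in E606 and N606 and 100.4 CPM in E591 and N591, with an adjusted p of 0.253 in edgeR. Mmp14 averaged 79.9 CPM in E591 and N591 and 38.9 CPM in E606 and N606, with an adjusted p of 0.270. The adjusted p was 0.627 for Timp2, 0.699 for Mmp2, 0.847 for Mmp13 and 0.995 for Mmp9, and Mmp13 had 298 to 348 CPM across the 4 numbers. The pair of E592 and N592 differed from the others in sex-linked transcripts too, with 1 and 8 counts of Xist and 260 and 307 counts of the Y-linked Ddx3y, against 935 to 1682 and 1 to 7 in the other numbers, and the part of sex in the Timp3 values was not tested.

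Summed endothelial markers were high or low in many of the same libraries as Timp3. A list of 11 endothelial markers summed to 337, 52.7, 43.0 and 237 CPM in E591, E592, E604 and E606, against 930, 92.0, 150 and 124 CPM in N591, N592, N604 and N606. As for Timp3, N591 was the highest library and E606 was above N606. The lowest sum was in E604, whereas Timp3 was lowest in E592. Of this list 5 genes were tested, Cdh5, Kdr, Tie1, Ptprb and Flt1. All 5 had a lower level in EcTM, 3 of them at an unadjusted p under 0.05 (5.4% of all tested genes) and 0 at the adjusted threshold, and 4 passed the test between numbers (3.04% of all tested genes). The defining markers Pecam1, Tek and Emcn were at 0 in every library, and each has 2 or more curated transcripts. Mural markers, 10 genes of smooth muscle cells and pericytes, summed to 99.6, 79.5, 92.1 and 82.1 CPM in E591, E592, E604 and E606, against 295, 77.5, 205 and 102 CPM in N591, N592, N604 and N606, and all 5 tested ones had a lower level in EcTM, 0 of them past the adjusted threshold. Unlike Timp3, the mural sum was lower in E606 than in N606 and slightly higher in E592 than in N592. Over 8 libraries the log2 CPM of Timp3 correlated with those of Ptprb (Pearson r = 0.97), Tie1 (0.95), Flt1 (0.91), Cdh5 (0.75) and Kdr (0.68). These libraries share numbers and groups, so the correlations are descriptions, and the part of vessel-cell RNA in the Timp3 values was not tested.

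**Figure D4:**
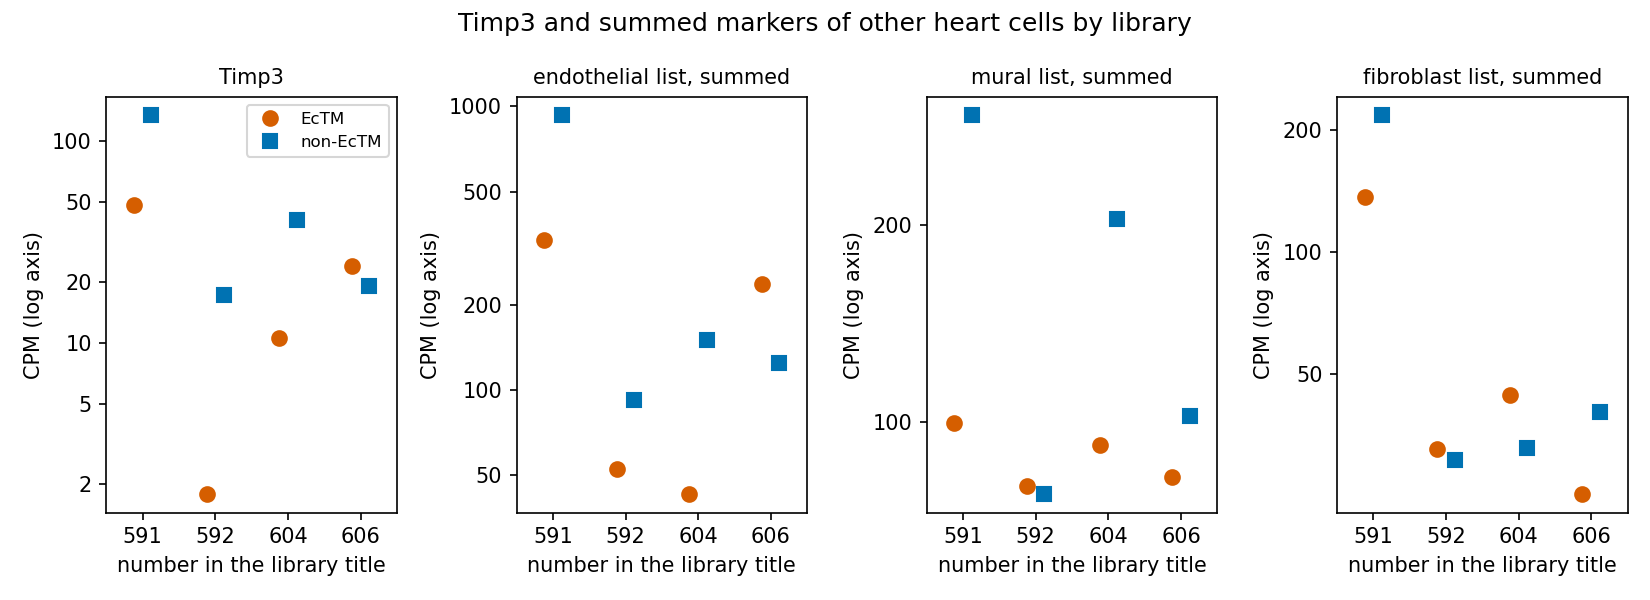
Level of Timp3 and summed levels of the endothelial, mural and fibroblast marker lists by number, in CPM on log axes, with EcTM as orange circles and non-EcTM as blue squares. N591 is the highest library in all 4 panels, and E606 alone of the EcTM libraries lies above its partner in Timp3 and in the endothelial sum.

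Other genes of the same pathways gave no call between EcTM and non-EcTM in paired edgeR, in any of 8 lists. Of 16 other metalloproteinase genes 2 were tested, Mmp15 at 10.2 ± 6.87 CPM in EcTM, against 13.7 ± 10.9 in non-EcTM, and Mmp17 at 4.67 ± 4.36 CPM in EcTM, against 3.48 ± 2.58 in non-EcTM (SD, n = 4). Another 7 of the 16 were at 0, and 5 of those 7 have several curated transcripts. Of 4 other inhibitor genes only Timp4 was tested, at 3.46 ± 4.005 CPM in EcTM, against 6.36 ± 9.51 in non-EcTM, and Timp1, which has 3 curated transcripts, was at 0. Among 18 other ADAM and ADAMTS genes 5 were tested, 4 with a positive and 1 with a negative log2 fold change and a median of 0.09. Adam10, the close relative of Adam17 that sheds Notch and cadherins, had 300.4 ± 43.5 CPM in EcTM, against 302 ± 17.6 in non-EcTM (SD, n = 4), a log2 fold change of -0.02 ± 0.11. Adamts1, a protease that cuts proteoglycans, was the 1 of the 5 that passed the test between numbers, with an adjusted p of 0.0447 in edgeR, against 3.04% of all tested genes, and it had 44.0 ± 16.3 CPM in EcTM, against 46.5 ± 30.5 in non-EcTM.

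The plasminogen system, to which Plaur belongs, had 7 of 13 genes tested, 4 with a positive and 3 with a negative log2 fold change and a median of 0.00, beside -0.01 for all tested genes. Plau, the urokinase gene whose product binds Plaur, averaged 287 ± 59.9 CPM in EcTM, against 251 ± 34.1 in non-EcTM (SD, n = 4), with a log2 fold change of 0.19 ± 0.11. S100a10, whose product binds plasminogen with annexin A2, averaged 255 ± 66.5 CPM in EcTM, against 286 ± 11.01 in non-EcTM, with -0.20 ± 0.12. The unadjusted p in edgeR was 0.0955 for Plau and 0.121 for S100a10. Lrp1, an endocytic receptor of the cell surface, was the most abundant of the list, at 4047 ± 159 CPM in EcTM, against 4039 ± 322 in non-EcTM.

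The list of other cathepsins and their inhibitors, set beside Ctsk, was the best covered, with 12 of 16 genes tested. Of these 5 had a positive and 7 a negative log2 fold change, with a median of -0.02. Ctss, the cathepsin S gene, which has 2 curated transcripts, was at 0. Cstb, which encodes the cathepsin inhibitor cystatin B, had 18.6, 10.3, 23.7 and 31.98 CPM in E591, E592, E604 and E606, against 39.3, 34.4, 44.1 and 47.5 CPM in N591, N592, N604 and N606. Every EcTM library was below every non-EcTM library, as for 108 of all tested genes (1.41%), though E606 and N592 were close. Cstb had a log2 fold change of -1.05 ± 0.30, an adjusted p of 0.536 and an unadjusted p of 0.00202 in edgeR. Lgmn, the legumain gene whose protease processes cathepsins in lysosomes, averaged 2057 ± 91.6 CPM in EcTM, against 1835 ± 108 in non-EcTM, with 0.17 ± 0.06 and an adjusted p of 0.751 in edgeR. Ctsz, the cathepsin Z gene, averaged 723 ± 50.7 CPM in EcTM, against 664 ± 46.1 in non-EcTM. Cst3, the cystatin C gene, passed the test between numbers with an adjusted p of 0.0386.

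Of 16 genes for convertases that remove propeptides and for cofactors of the sheddases 8 were tested, 6 with a positive and 2 with a negative log2 fold change and a median of 0.20. Furin, the convertase that activates Mmp14 and ADAM proteases, had 35.7 ± 12.1 CPM in EcTM, against 29.4 ± 7.40 in non-EcTM (SD, n = 4), a log2 fold change of 0.25 ± 0.28. Of 15 genes for proteins that Adam17 sheds 10 were tested, 7 positive and 3 negative, with a median of 0.05. Csf1r, the receptor of the macrophage growth factor, averaged 5967 ± 218 CPM in EcTM, against 5582 ± 214 in non-EcTM, with 0.10 ± 0.04 and an adjusted p of 0.905 in edgeR.

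Among 20 genes for matrix proteins, the substrates of these enzymes, 11 were tested, 6 with a positive and 5 with a negative log2 fold change and a median of 0.00. Lama4, a laminin chain of vessel basement membranes, had 9.05, 2.23, 3.51 and 3.16 CPM in E591, E592, E604 and E606, against 54.8, 9.78, 11.8 and 13.2 CPM in N591, N592, N604 and N606. All EcTM libraries were below all non-EcTM libraries, E591 only just, as for 108 of all tested genes (1.41%). N591 stood far above the rest, as it did for Timp3. For Lama4 the log2 fold change came to -2.14 ± 0.51 and the adjusted p in edgeR to 0.277. Col4a2, a chain of basement membrane collagen that the gelatinases cut, had 177 ± 101 CPM in EcTM, against 242 ± 202 in non-EcTM (SD, n = 4), with a log2 fold change of -0.34 ± 0.15 and an adjusted p of 0.897 in edgeR. N591 was its highest library, at 546 CPM, and EcTM was above non-EcTM in 2 of 4 pairs. Between numbers 4 of the 11 passed, against 3.04% of all tested genes, Col4a2 with an adjusted p of 5.33e-07, Col3a1 with 3.96e-05, Lamb1 with 0.0161 and Col1a1 with 0.0298.

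**Figure D5:**
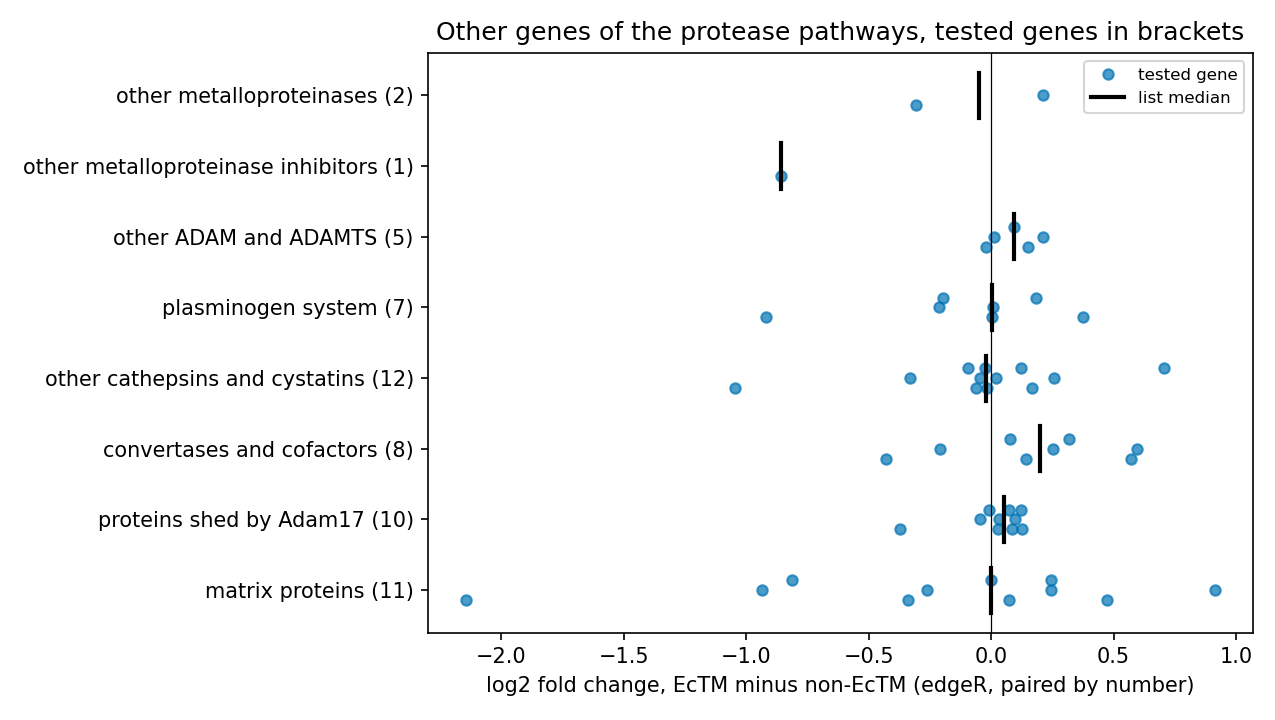
Log2 fold change of EcTM over non-EcTM in paired edgeR for the tested genes of 8 lists of related genes, 1 point a gene, with a black bar at each list's median. Medians of the lists with at least 5 tested genes lie between -0.02 and 0.20, the point farthest to the left is Lama4 at -2.14, and none of the points passed the adjusted threshold.

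The tested genes whose log2 CPM followed each gene most closely over the 8 libraries were ranked by Pearson correlation among 7660 others. For Timp3 they were Igfbp3 (r = 0.97), an insulin-like growth factor binding protein gene, the endothelial phosphatase gene Ptprb (0.97) and Tns2 (0.96). For Mmp13 they were Zfp282 (0.97), Clptm1 (0.94) and the platelet-derived growth factor gene Pdgfb (0.91). The best match of any of the 7 genes had an r between 0.92 and 0.98, values that the highest of 7660 correlations over 8 libraries describe and do not test.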

How the data were processed

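Sorted cells gave total RNA (RNeasy plus micro kit), sequenced as stranded libraries (SMARTer Pico kit), per the labels' protocols. The submitters' processing notes name bcl2fastq 2.17, TopHat, DESeq2, R 3.2 and the build mm10. For the counting step, the program, the annotation and any use of strand were not given in the sources used here. Raw counts per gene in 8 libraries were deposited by the authors, and the deposited log2 values, under headers that read CPM, were not used. Unused columns of counts numbered 0. RefSeq's annotation of GRCm38.p6, the assembly named mm10, was matched by Entrez number for 24447 genes.

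Low genes were dropped by filterByExpr. EcTM minus non-EcTM was fitted in edgeR 4.0.16 (R 4.3.3, quasi-likelihood F-test, TMM) with the number as a block, adjusted by Benjamini-Hochberg over 7667 genes at 0.05. Its biological coefficient of variation was 0.304. The number coefficients were tested in the same fit. CPM use TMM-scaled library sizes, and log2 CPM a prior count of 2. Alternatives were DESeq2 1.42.0, voom in limma 3.58.1, other scalings and filters, and left-out libraries. Fits were tested on simulated data. Python 3.11.15 with matplotlib 3.10.9 drew the figures. For the pairing, deviations from group means were correlated across genes, at 0.12 to 0.19 for the 4 same-numbered pairs, all above a minimum of 0.1, and at -0.13 to 0.05 for other pairs. All 10 genes are named. From each related list, those past either test and the 3 of smallest unadjusted p were eligible, while Lrp1, Timp1 and Ctss were chosen after their values were seen. A further eligible gene is not reported here. The 10 genes and the lists were chosen with earlier results of these data known.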

Additional observations from a re-analysis of the deposited data

Results flagged for a closer look

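All 10 genes were checked within each of the 2 groups of 4 libraries, except Adam9 in EcTM, where every count was 0. Among these, 2 values stood apart, each measured as the gap to the nearest library over the whole range. Dixon's critical value is 0.829, and chance marks about 5% of groups of normally distributed values. That rate need not hold for counts near 0. Ctsk had a gap of 0.935 in EcTM, where E606 had 17 counts, against 0, 0 and 1 in E591, E592 and E604, and its non-EcTM libraries had 1 to 7 counts. Adam9 had a gap of 1 in non-EcTM, which rests on a single count in N606. With 0 counts in the other libraries of the group, any count there gives that gap. Both genes were too low to test between groups.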

How the results depend on the processing

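The count of genes that differed between EcTM and non-EcTM, 1 in paired edgeR, depended on the tool and the filter. It was 0 without the replicate block, 26 in DESeq2 and 19 in limma-voom with the block, 17 in DESeq2 at its default filter (added after seeing the data), 10 with no filter on low counts, 0 over genes with 1 curated transcript, 0 with robust dispersions and 0 to 2 with a pair or library left out. The count between numbers, 233, was 442 in DESeq2, 439 at its default filter, 350 with no filter and 146 to 179 with a pair left out. The cause was not tested. The block changed no call of the 7 tested genes.

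Over 22 alternatives Mmp13 stayed between 0.27 and 0.40 (adjusted p 0.0428 to 0.9998), past the threshold in DESeq2 alone, and Timp3 between -2.101 and -0.27 (0.0354 to 0.9998), past it with no filter alone. Mmp2 stayed between 0.62 and 1.63 and Mmp9 between -1.22 and -0.31. Values near 0 changed sign with libraries left out. Mmp14 ranged over -0.14 to 0.18 with a pair left out and over -0.20 to 0.26 with a library left out of the unpaired fit, where the positive values were 0.10 without E606 and 0.26 without N591. Timp2 ranged over -0.10 to 0.031 with a pair left out, and was 0.015 without E604, 0.019 without N591 and 0.011 without N592. Plaur ranged over -0.19 to 0.10 with a pair left out and was 0.0098 without E591, 0.032 without E604, 0.0106 without N592 and 0.044 without N606. Between numbers Timp3 passed in 12 of 13 alternatives, all but the one without E591 and N591 (log2 range 1.71). Counts of Adam9, Adam17 and Ctsk were too low for any comparison.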
